A study of Mus musculus with 8 samples.

Results

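This account describes 9 genes for growth factor and cytokine receptors of the cell surface, Osmr, Lifr, Il6st, Ghr, Pdgfra, Met, Fgfr1, Egfr and Igf1r. They were taken because their proteins carry N-linked sugar chains, and their probe sets were found through the platform annotation of the arrays. The receptors, and the gene lists used below, were chosen with earlier results of these data known. Their counts of calls beside those of all genes are therefore descriptions. The 9 genes are among 18193 genes with a probe set of their own, and they have 33 of the 45101 probe sets. The cells were cultured 3T3-L1 adipocytes, a mouse fibroblast line that turns into fat cells in a dish. Cells were exposed to tunicamycin, which stops the enzyme that starts N-linked sugar chains, or were controls. Of 8 arrays, the tunicamycin cells have 1 for 4 h, 1 for 8 h and 2 for 12 h. The control cells have 1 for 4 h, 2 for 8 h and 1 for 12 h. The labels call the replicates biological, and the sources used here give neither the tunicamycin dose nor the vehicle of the controls. All arrays come from 1 cell line, and RNA was measured without any measurement of receptor protein or of its sugar chains.

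These receptors carry signals from outside the cell to the nucleus. Pdgfra, Met, Fgfr1, Egfr and Igf1r are receptor tyrosine kinases, which phosphorylate themselves when a ligand binds and recruit adaptors of the Ras and PI3 kinase pathways. Il6st (gp130), Osmr, Lifr and Ghr have no kinase of their own and signal through bound JAK kinases and STAT transcription factors, with Il6st as the shared partner of Osmr and Lifr. All are made in the endoplasmic reticulum (ER), where sugar chains help them to fold, so tunicamycin is widely used to hold such proteins back from the surface, and it also triggers the ER's unfolded protein response.

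For the 4 genes that passed the test over all times, promoter windows are shown. Each is the 250 bases before a listed RefSeq transcription start in assembly GRCm38.p6, read 5' to 3' on the strand of the gene. The regions are chr15:6874314-6874563, minus strand (Osmr), chr15:7129322-7129571, plus strand (Lifr, the first of its 2 listed starts), chr5:75152001-75152250, plus strand (Pdgfra) and chr6:17463707-17463956, plus strand (Met). All 4 windows lie inside the span of their gene, which begins at 6874968 (Osmr), 7090610 (Lifr), 75151322 (Pdgfra) and 17463349 (Met). They thus belong to starts inside the gene, and which start the called transcripts use was not tested. Capitals mark matches, on either strand, to the 10 motifs searched.
Osmr: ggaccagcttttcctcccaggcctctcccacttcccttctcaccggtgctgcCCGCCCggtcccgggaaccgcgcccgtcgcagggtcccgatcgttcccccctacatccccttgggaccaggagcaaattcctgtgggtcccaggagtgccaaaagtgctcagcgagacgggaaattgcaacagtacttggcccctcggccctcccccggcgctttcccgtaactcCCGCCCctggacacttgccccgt
Lifr: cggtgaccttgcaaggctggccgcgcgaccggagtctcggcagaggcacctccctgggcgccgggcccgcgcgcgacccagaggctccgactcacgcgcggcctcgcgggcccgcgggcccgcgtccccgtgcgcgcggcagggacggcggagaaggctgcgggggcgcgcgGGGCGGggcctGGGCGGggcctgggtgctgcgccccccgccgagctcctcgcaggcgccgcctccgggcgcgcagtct
Pdgfra: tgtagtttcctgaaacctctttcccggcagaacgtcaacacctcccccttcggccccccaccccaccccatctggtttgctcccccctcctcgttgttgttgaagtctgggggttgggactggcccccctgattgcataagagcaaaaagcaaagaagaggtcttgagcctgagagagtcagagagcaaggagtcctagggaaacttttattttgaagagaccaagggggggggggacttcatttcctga
Met: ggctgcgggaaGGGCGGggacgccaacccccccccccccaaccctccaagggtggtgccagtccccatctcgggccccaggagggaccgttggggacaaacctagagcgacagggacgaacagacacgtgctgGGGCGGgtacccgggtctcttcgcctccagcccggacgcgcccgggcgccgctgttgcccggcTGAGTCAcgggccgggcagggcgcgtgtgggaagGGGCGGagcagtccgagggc

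A promoter was listed for 8 of the 9 genes, in 10 windows, and Fgfr1 had no entry. The motifs were a STAT site (TTCNNNGAA), an AP-1 site (TGANTCA), the ATF4 composite element (TGATGNAA), an XBP1/ATF6 element (TGACGTGG), the ER stress element ERSE, a CRE (TGACGTCA), a C/EBP site (TTGCGCAA), the CCAAT box (CCAAT, part of the ERSE), the GC box (GGGCGG) and the TATA box (TATAAA). The capitals in the Osmr and Lifr promoters are GC boxes, 2 in each, and a GC box is found in 32.7% of 32851 promoters of the same length. The Met promoter holds 3 GC boxes and the AP-1 match TGAGTCA at positions -54 to -48 from the start. AP-1 matches occur in 6.75% of all promoters, and the only other receptor window with one is the first promoter of Ghr (TGAATCA, -34 to -28). The Pdgfra window holds none of the 10 motifs. No window of the 8 genes holds the STAT, ATF4, XBP1/ATF6, ERSE, CRE or C/EBP letters, which occur in 7.02%, 3.45%, 0.563%, 0.113%, 1.55% and 0.164% of all promoters. The G and C bases make up 66% of the Osmr window, 82.4% of the Lifr window, 54.4% of the Pdgfra window and 74% of the Met window, against a median of 52.4% over all promoters.

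The labelled cell type was checked against marker genes. All 16 fat cell markers with a probe set passed the filter on dim genes, and the defining marker Adipoq was at 8016 to 9240 with tunicamycin and 8450 to 9746 in controls. None of 6 endothelial markers passed it, Pecam1 was at 0 on all 8 arrays, and 3 of 9 macrophage markers passed it, with medians of Itgam and Tyrobp below the 2.956 added to each value before the log. The summed intensity of the endothelial markers was 17.7 to 37.1 with tunicamycin and 14.1 to 30.5 in controls, and that of the macrophage markers was 259 to 436 with tunicamycin and 274 to 533 in controls. Of 14 markers of fibroblasts and fat cell progenitors, 13 passed the filter as well. Their sum was 38313 to 43926 with tunicamycin and 43472 to 51275 in controls, so the check did not set fat cells apart from progenitors. The 4 h tunicamycin array had a 3' to 5' signal ratio of 2.81 for beta-actin and 43.5 for pyruvate carboxylase, against 1.51 to 1.82 and 12.1 to 15.3 on the control arrays. For pyruvate carboxylase the ratio was also above the controls on the 8 h tunicamycin array (19.8), and 1 of the 12 h tunicamycin arrays was below them (6.74). The spiked hybridisation controls differed with time, with a BioC signal over BioB of 3.50 to 3.94 at 4 h and 8 h but 1.52 to 1.60 at 12 h, so the 12 h arrays stand apart in a technical measure while each time has both treatments.

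Values are normalized intensities, and the brightest probe set on average stands for each gene, so levels are compared between arrays and never between genes. Fold changes are tunicamycin over control on the log2 scale, with limma's standard error (SE) and p-values adjusted by Benjamini-Hochberg over 10916 tested genes. A gene was called at an adjusted p under 0.05. All 9 receptors were bright enough to be tested.

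Osmr, the subunit that makes Il6st into a receptor for oncostatin M (chromosome 15), was the receptor that rose. Its intensity with tunicamycin was 484 at 4 h, 878 at 8 h and 913 and 967 at 12 h, and in controls it was 252 at 4 h, 209.6 and 199.9 at 8 h and 206 at 12 h. Every tunicamycin array lay above every control array, and the 4 h tunicamycin array was the lowest of its 4. The mean was 810.5 ± 220.4 with tunicamycin and 217 ± 23.7 in controls (SD, n = 4 arrays each over the 3 times). Over all times the log2 fold change was 1.80 (SE 0.197, limma adjusted p = 0.000723), which is 3.49-fold. At 4 h it was 0.94 and did not pass (adjusted p = 0.0667), at 8 h it was 2.08 (4.24-fold, adjusted p = 0.000115) and at 12 h 2.17 (4.51-fold, adjusted p = 8.43e-05). The effect differed between times by limma's F test (adjusted p = 0.0491), and was larger at 12 h than at 4 h by 1.24 (adjusted p = 0.0287). The call over all times was made in each of 18 alternative analyses, with fold changes of 1.27 to 2.17 on the log2 scale and adjusted p up to 0.0400.

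Lifr, which pairs with Il6st to receive leukaemia inhibitory factor (chromosome 15), moved the other way. It had 405 at 4 h, 245 at 8 h and 164 and 162 at 12 h with tunicamycin, against 422 at 4 h, 400.2 and 489 at 8 h and 476 at 12 h in controls. The 4 h arrays of both treatments lay close together, and the later tunicamycin arrays lay below all controls. Over all times Lifr fell by 0.88 on the log2 scale (SE 0.216, limma adjusted p = 0.0198), which is 1.84-fold lower. The log2 fold change was -0.06 at 4 h (adjusted p = 0.958), -0.84 at 8 h (adjusted p = 0.0117) and -1.53 at 12 h (2.89-fold lower, adjusted p = 0.000717). The effect at 12 h minus that at 4 h was -1.47 (adjusted p = 0.0287), although the F test over the 3 times did not pass (adjusted p = 0.0660). Among the 4 receptors called over all times, Lifr lost its call most often, in 8 of 18 alternatives. It was lost without the 8 h tunicamycin array (adjusted p = 0.111), the 12 h control (0.129), 1 of the 12 h tunicamycin arrays (0.0510) or 1 of the 8 h controls (0.0533), and the mean of its 3 probe sets gave -0.36 (adjusted p = 0.174).

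Il6st, the gp130 chain that both of these receptors need (chromosome 13), had 604, 653, 668 and 639 with tunicamycin at 4 h, 8 h and 12 h, against 561, 582, 512 and 658 in controls at 4 h, 8 h, 8 h and 12 h. The groups overlapped, because the 12 h control was among the highest arrays. The log2 fold change over all times was 0.12 (SE 0.106, limma adjusted p = 0.460), and at single times it was 0.11, 0.26 and -0.01 with no call. Of 4 Il6st probe sets, 2 lay above 0 and 2 below over all times, from -0.32 to 0.37, with no call. At 12 h 1437303_at was at 0.58 (limma adjusted p = 0.0776, over all probe sets) and 1421239_at at 0.82 (0.231). The probe set 1460295_s_at was then at -0.01. Of the 3 chains of this family, by the probe set that stood for each, Osmr was thus called higher, Lifr lower and Il6st not at all.

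Ghr, the growth hormone receptor, which signals through JAK2 and STAT5 (chromosome 15), was called at 12 h. It had 4620.2 at 4 h, 3469 at 8 h and 1646 and 1642 at 12 h with tunicamycin, and 4269 at 4 h, 4157 and 3818 at 8 h and 3457 at 12 h in controls. The 4 h tunicamycin array was the highest of the 8 and the 12 h tunicamycin arrays were the lowest. The log2 fold change over all times was -0.43 (SE 0.175, adjusted p = 0.109), with 0.11 at 4 h, -0.20 at 8 h (adjusted p = 0.259) and -1.07 at 12 h (2.10-fold lower, adjusted p = 0.000487). The effect differed between times (limma F test, adjusted p = 0.0318), and that at 12 h minus that at 4 h was -1.19 (adjusted p = 0.0139). Without the 4 h tunicamycin array no treatment contrast remains at 4 h. The value then covers 8 h and 12 h, and it was -0.64 and called (limma adjusted p = 0.0186).

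**Figure D1:**
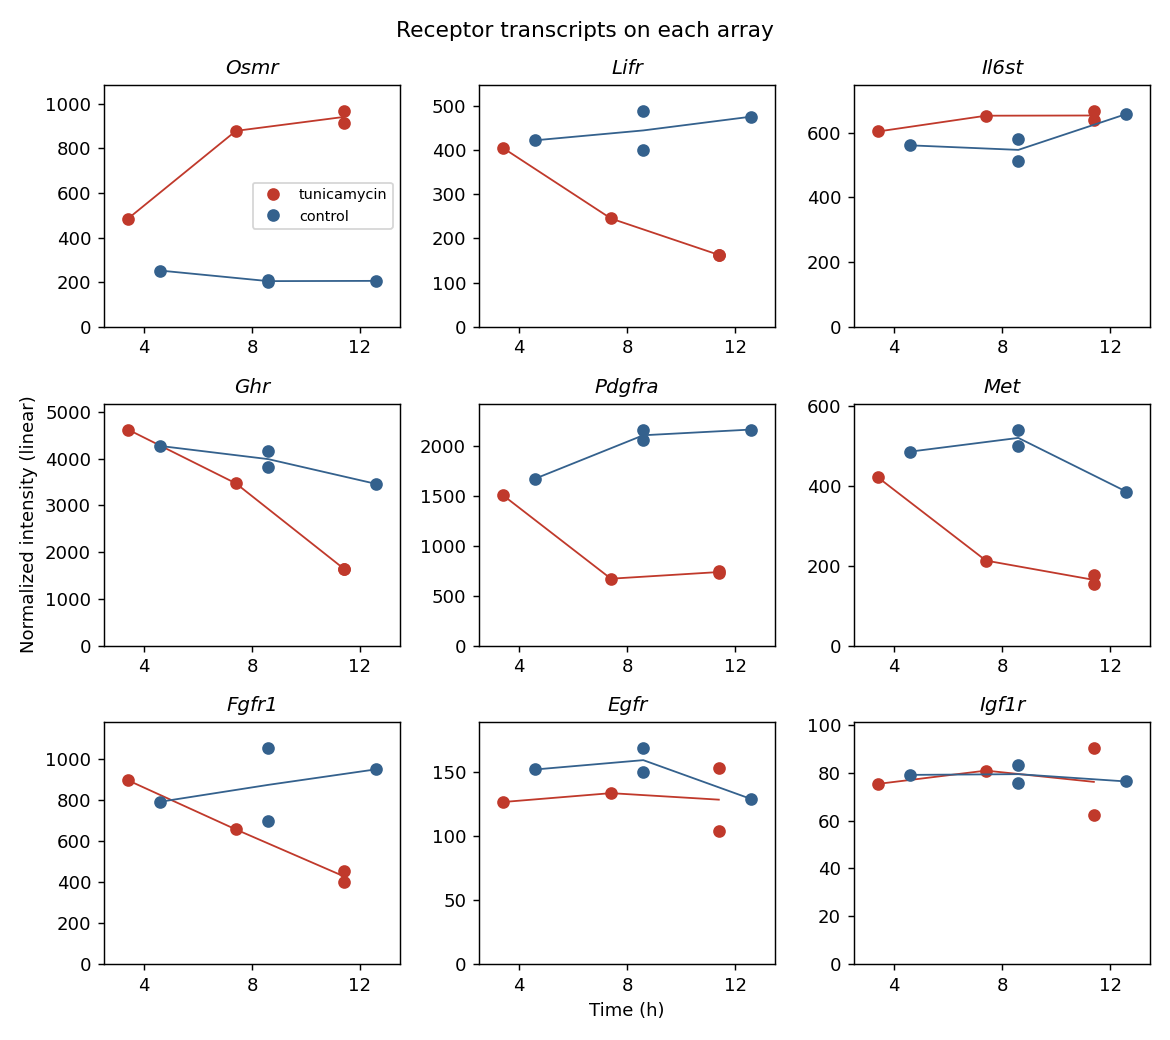
Normalized intensity (linear scale) of each receptor on each of the 8 arrays against time in hours, tunicamycin in red and control in blue. Points are arrays, lines join the group means, and points are set slightly left (tunicamycin) or right (control) of the true time. Osmr reaches 913 and 967 at 12 h with tunicamycin against 206 in the control, while Pdgfra, Met, Lifr, Ghr and Fgfr1 lie below their control at 12 h.

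Among the receptor tyrosine kinases, Pdgfra, the receptor for platelet-derived growth factor that marks fat cell progenitors (chromosome 5), had the lowest log2 fold change over all times. It had 1505 at 4 h, 670 at 8 h and 750.2 and 723 at 12 h with tunicamycin, against 1673 at 4 h, 2158 and 2055 at 8 h and 2164 at 12 h in controls. All tunicamycin arrays lay below all controls, though the 4 h arrays of the 2 treatments lay close together. The mean was 912 ± 397 with tunicamycin and 2012 ± 232 in controls (SD, n = 4 arrays each over the 3 times). Pdgfra fell by 1.21 on the log2 scale over all times (SE 0.222, limma adjusted p = 0.00603), which is 2.31-fold. The log2 fold change was -0.15 at 4 h (adjusted p = 0.771), -1.65 at 8 h (3.14-fold lower, adjusted p = 0.000135) and -1.55 at 12 h (2.93-fold lower, adjusted p = 0.000148). The effect differed between times (limma F test, adjusted p = 0.0260), at -1.50 for 8 h minus 4 h and -1.40 for 12 h minus 4 h.

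Met, the receptor for hepatocyte growth factor (chromosome 6), had 421 at 4 h, 213 at 8 h and 175 and 153 at 12 h with tunicamycin. Its controls had 485 at 4 h, 541 and 499 at 8 h and 385 at 12 h. Each tunicamycin array lay below the controls of its own time, and the 4 h tunicamycin array lay above the 12 h control. Met fell by 0.96 over all times (SE 0.183, limma adjusted p = 0.00693), which is 1.95-fold. The log2 fold change was -0.21 at 4 h, -1.28 at 8 h (adjusted p = 0.00161) and -1.22 at 12 h (adjusted p = 0.00147), and the F test of the difference between times did not pass (adjusted p = 0.0992). The calls of Pdgfra and Met over all times were lost without the 8 h tunicamycin array (adjusted p = 0.0791 for Pdgfra and 0.0831 for Met) or the 12 h control (0.0502 and 0.0528), and when no genes were filtered out (0.0919 and 0.0822).

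Fgfr1, a receptor for fibroblast growth factors, had 896 at 4 h, 657 at 8 h and 454 and 403 at 12 h with tunicamycin, and 792 at 4 h, 696 and 1053 at 8 h and 949.9 at 12 h in controls. Its 2 control arrays at 8 h lay far apart, and the 12 h tunicamycin arrays were the lowest of all. The log2 fold change over all times was -0.51 (SE 0.218, adjusted p = 0.126), and it was 0.18 at 4 h, -0.38 at 8 h and -1.15 at 12 h (2.21-fold lower, limma adjusted p = 0.00915). The 12 h call was lost with the mean of its 3 probe sets (-0.73, adjusted p = 0.143). Without the 4 h tunicamycin array the value covers 8 h and 12 h only, and it was called (limma adjusted p = 0.0206).

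Egfr, the receptor for epidermal growth factor and its relatives (chromosome 11), had 127, 134, 153 and 104 with tunicamycin at 4 h, 8 h and 12 h, against 152, 169, 150.2 and 129 in controls at 4 h, 8 h, 8 h and 12 h. The groups overlapped, and the log2 fold change over all times was -0.17 (SE 0.153, limma adjusted p = 0.460), with no call at any time. These values are of the probe set that stood for the gene by a narrow margin. Its mean log2 value was 7.14, beside 7.11 for 1435888_at and 7.09 for 1424932_at. In controls those averaged 199 and 178, above its 150. The mean takes in the tunicamycin arrays, so a fall with tunicamycin lowers the rank of a probe set. Those probe sets gave another picture, described with the probe sets. Igf1r, the receptor for insulin-like growth factors (chromosome 7), had 75.3, 80.9, 90.2 and 62.1 with tunicamycin and 79.1, 83.3, 75.5 and 76.4 in controls. Its groups overlapped throughout, with a log2 fold change over all times of -0.02 (SE 0.164, adjusted p = 0.950).

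Over all times 1 of the 9 receptors was called higher and 3 lower, where 11.1% of the 10916 genes passed the test as higher and 9.68% as lower. With the deposited scaling kept, the calls over all genes split differently, with 143 higher and 707 lower (16.8% of calls higher, against 53.3%), and the median of all genes moved to -0.31. The receptors' calls were then 1 higher and 4 lower. At 4 h no receptor was called in either direction by limma, and 1 of the 9, Osmr, had an unadjusted p under 0.05. Across all genes, 0.357% were called higher and 0.0366% lower at 4 h, and 10.8% had an unadjusted p under 0.05. At 8 h 1 receptor was called higher and 3 lower, against 9.41% and 8.95% of all genes. At 12 h 1 was called higher and 5 lower, against 10.1% and 10.9% of all genes. The median log2 fold change of the 9 receptors was -0.43 over all times, beside -0.01 over all genes tested. It was -0.06 at 4 h, -0.25 at 8 h and -1.07 at 12 h, beside 0.03, -0.02 and -0.01 over all genes tested.

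The single times hold 1 or 2 arrays a group, so their tests assume that each lone array varies like the replicated 8 h controls and 12 h tunicamycin arrays. With the deposited scaling kept, the fold changes of the called receptors kept their direction but no receptor was called at 8 h or at 12 h, with adjusted p from 0.235 to 1. Without a filter, the calls of Met and Lifr at 8 h (adjusted p = 0.0620 and 0.123) and of Met, Lifr and Fgfr1 at 12 h (0.0551, 0.0557 and 0.189) were lost. When probe sets were averaged, Osmr at 8 h was at 1.18 and still called, and Lifr was not called at 8 h (-0.40) or at 12 h (-0.62). Lifr at 8 h was also not called without the second 8 h control (-0.70, adjusted p = 0.0777). In the arrays of 4 h and 8 h alone, Osmr was at 1.59 (adjusted p = 0.0259), Pdgfra at -1.01 (0.0896), Met at -0.82 (0.0871) and Lifr at -0.51 (0.173). In the 12 h arrays alone, they were at 2.17, -1.55, -1.22 and -1.53, all called, with Ghr and Fgfr1 called lower as well.

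The difference of the effect between times was called for 3 receptors, Pdgfra, Ghr and Osmr, by the F test, against 1.73% of all genes. The contrast of 12 h with 4 h was called for those 3 and for Lifr, against 3.01% of all genes, and the contrast of 8 h with 4 h was called for Pdgfra, against 0.595% of all genes. By an unadjusted p under 0.05 the F test counted 6 receptors, against 17.2% of all genes. Without either 12 h tunicamycin array the F test called 1 receptor, and without either 8 h control it called 0. It also called 0 with the deposited scaling, without a filter, with averaged probe sets or without limma's intensity trend. The F test call of Osmr was lost in 10 of 12 alternatives, that of Ghr in 9 and that of Pdgfra in 6. At 4 h these differences rest on 1 tunicamycin array, which had the high 3' to 5' ratios, and 1 control array, and the part of RNA quality in them was not tested. Every tunicamycin array lay on the high side of the controls of its own time for Osmr and on the low side for Pdgfra, Met and Lifr, which holds for 20.1% and 18.8% of all genes. In the control arrays, no gene was called between 12 h and 4 h (0% higher and 0% lower, limma), and 8.57% had an unadjusted p under 0.05. Among the receptors Pdgfra and Ghr had such a p in the controls.

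**Figure D2:**
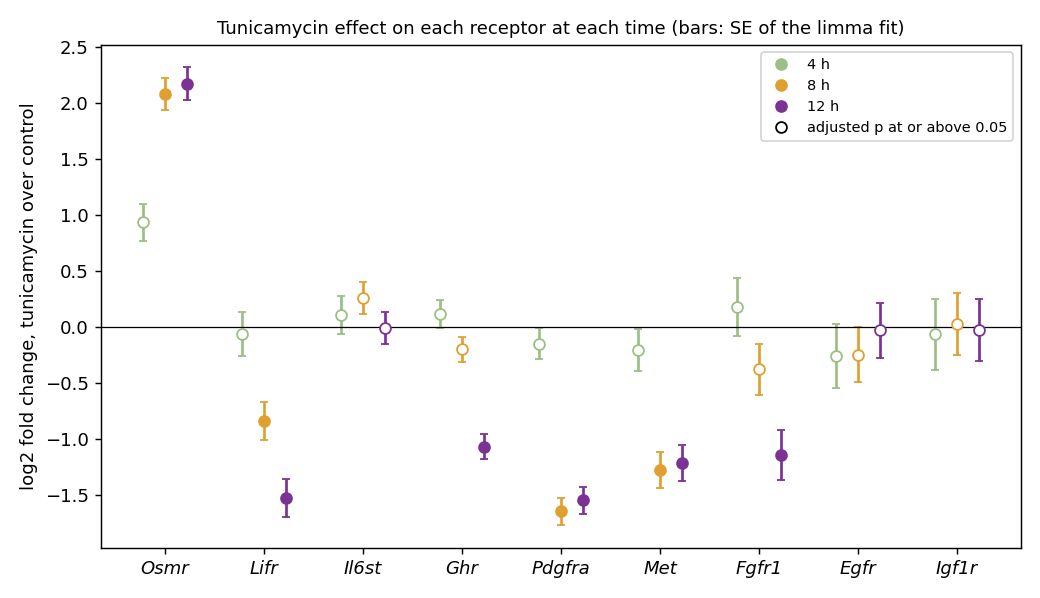
Log2 fold change of tunicamycin over control (vertical axis) for the 9 receptors (horizontal axis) at 4 h, 8 h and 12 h, with bars for the SE of the limma fit. Filled points were called at an adjusted p under 0.05 and open points were not. No receptor is filled at 4 h, and at 12 h Osmr is filled at 2.17 and 5 receptors are filled below 0.

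The 33 probe sets show how far each result rests on 1 stretch of a transcript. In a fit over 27022 probe sets, 31 were tested, 2 were called higher and 6 lower over all times, against 5.57% and 5.33% of all probe sets. The untested 2, 1 of Egfr and 1 of Osmr, were too dim. Both tested Osmr probe sets were called higher, at 1.80 and 1.37. The second Osmr probe set had 52.9 at 4 h, 133 at 8 h and 218 and 363 at 12 h with tunicamycin, against 58.4, 53.5, 43.4 and 49.3 in controls, so it was not higher at 4 h. For Pdgfra, 2 of 3 probe sets were called lower, at -1.21 and -1.43, and the dimmest, at -0.30, was not called. Both Met probe sets were called lower, at -0.96 and -1.38.

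For Lifr the brightest of 3 probe sets was called lower and the others, at -0.53 and 0.34, were not. The Ghr probe sets disagreed in time. The brightest fell at 12 h, the second (1451501_a_at) was at 2733, 2227, 2339 and 2248 with tunicamycin against 2874, 2991, 2862 and 2464 in controls with no call, and the dimmest (1451871_a_at) was called lower over all times at -1.01 (adjusted p = 0.00862). The Egfr probe sets disagreed as well. The probe set 1435888_at had 226 at 4 h, 92.8 at 8 h and 62.8 and 53.8 at 12 h with tunicamycin, against 175 at 4 h, 209 and 226 at 8 h and 185 at 12 h in controls. Its log2 fold change was -1.20 at 8 h (adjusted p = 0.0185, over all probe sets) and -1.62 at 12 h (adjusted p = 0.00555). The probe set 1424932_at had 62.7 and 60.0 at 12 h with tunicamycin against 195 in the control, a log2 fold change of -1.62 (adjusted p = 0.00438), while the probe set that stood for the gene was at -0.03.

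At 4 h the other probe sets lay to both sides of the one that stood for the gene. Of 22 others tested, 12 had a lower log2 fold change than it and 10 a higher one, from -1.36 to 0.62, and 0 were called. Met 1422990_at was at -1.36, Il6st 1460295_s_at at -1.08, Egfr 1432647_at at -0.94, Pdgfra 1421916_at at -0.89 and Ghr 1451871_a_at at -0.81 at 4 h. Above their gene's main probe set lay Egfr 1424932_at at 0.46 and 1435888_at at 0.37, Igf1r 1428967_at at 0.46 and Lifr 1450207_at at 0.45. The position of each probe set along its transcript was not analysed here, and the part of the array's 3' to 5' ratio in these values was not tested. All 5 tested Igf1r probe sets lay between -0.06 and 0.16 over all times, with no call.

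**Figure D3:**
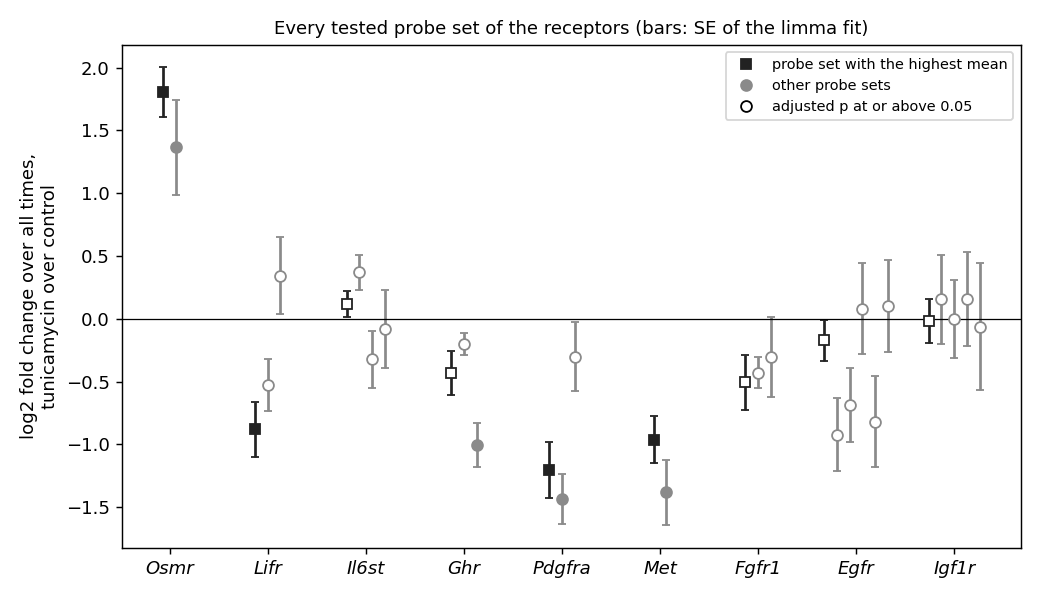
Log2 fold change over all times of tunicamycin over control (vertical axis) for each of the 31 tested probe sets, grouped by receptor, with bars for the SE of the limma fit. Squares are the probe sets that stand for a gene, circles are the others, and filled marks were called. Both Osmr marks lie above 0, and the called marks of Pdgfra, Met, Ghr and Lifr lie below 0.

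The authors' deposited table of each time gives a log10 ratio for the same probe sets. Its direction is not stated and was read as tunicamycin over control, since the ratios correlated with the fold changes computed here (Pearson's r of 0.816 at 4 h, 0.926 at 8 h and 0.915 at 12 h across 10916 genes, which are not independent of each other). In the authors' deposited table Osmr had log10 ratios of 0.285 at 4 h, 0.640 at 8 h and 0.677 at 12 h. The authors' deposited table gives the 4 h ratio of Osmr a p of 7.37e-15, from a test that is not stated, where the fit across arrays made no call at 4 h. Lifr had 0.00218, -0.215 and -0.406 in the authors' deposited table, and Ghr had 0.0415, -0.0594 and -0.322. Met had -0.0735, -0.393 and -0.456 in the authors' deposited table, which is lowest at 12 h, where the fold change computed here was lowest at 8 h. Of the 9 receptors, 6 had the same order of times in both sources, and Met, Egfr and Igf1r did not.

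By rule, the 3 tested genes whose log2 values over the 8 arrays were most like those of each receptor were found by Pearson's r among 10915 other genes. These arrays share treatment, time and normalization, so a high r is a description. For Osmr they were Vars (0.997), Ypel5 (0.997) and Foxk2 (0.995), for Pdgfra Pxdn (0.995), Fuca1 (0.994) and S100a4 (0.991), and for Met Zfp672 (0.997), Poln (0.995) and Gnpat (0.994). Lifr was most like Nrp1 (0.992), Cxcl12 (0.990) and Ndufa5 (0.990), and Nrp1 was also second for Fgfr1 (0.979) after Dnajc17 (0.982), followed by Gpr153 (0.974). Ghr was most like Myh11 (0.991), Tgs1 (0.987) and Sema3g (0.987). The closest genes had lower r for Il6st, Egfr and Igf1r, whose main probe sets had no call at any time. The highest r was 0.960 for Il6st (4931406H21Rik), 0.944 for Egfr (Zfp866) and 0.975 for Igf1r (Serpina3i).

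The ligands of these receptors moved in both directions. Of 29 listed ligands 16 were tested, and 3 were called higher and 3 lower over all times, against 11.1% and 9.68% of all genes. Their median log2 fold change was 0.10 beside -0.01 over all genes. Il6, the cytokine read by Il6st, had 78.3 at 4 h, 181 at 8 h and 190.4 and 314 at 12 h with tunicamycin, against 24.5, 18.9, 24.5 and 16.0 in controls, a log2 fold change of 2.83 (SE 0.336, limma adjusted p = 0.00102). Its groups did not overlap. Hbegf, a ligand of Egfr, was higher by 1.56 and Clcf1, a ligand of the Lifr and Il6st pair, by 0.60. Igf1, the ligand of Igf1r, had 339 at 4 h, 335 at 8 h and 298 and 232 at 12 h with tunicamycin, against 511, 595, 500.4 and 686 in controls, and fell by 0.91 (SE 0.166, adjusted p = 0.00565). Fgf10 fell by 0.81 and Igf2 by 0.44. Osm and Lif, the ligands after which Osmr and Lifr are named, were too dim to test.

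Other receptors of these families had 3 calls higher and 4 lower among 28 tested of 43 listed, against 11.1% and 9.68% of all genes. Their median was -0.14. Ddr2 (0.66) and Ddr1 (0.42), tyrosine kinases that bind collagen, and the interferon receptor chain Ifnar1 (0.52) were higher. Fgfr3 (-0.98), Axl (-0.48) and Pdgfrl (-0.46) were lower. Il6ra, the chain that binds interleukin 6 itself, was too dim to test.

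Signal transducers had 5 calls higher and 4 lower among 32 tested of 42 listed, against 11.1% and 9.68% of all genes, with a median of 0.07. The JAK kinases Jak2 (0.91), Tyk2 (0.70) and Jak1 (0.70), on which the cytokine receptors rely, were all higher, and so was the adaptor Gab2 (0.93). Irs1, the docking protein of Igf1r and the insulin receptor, had 947 at 4 h, 262 at 8 h and 302 and 295 at 12 h with tunicamycin, against 1109, 1219.7, 1235 and 880.4 in controls, and fell by 1.43 (SE 0.268, limma adjusted p = 0.00642). The PI3 kinase subunit Pik3r1 (-0.80), Stat5a (-0.67), the transcription factor downstream of Ghr, and the kinase Araf (-0.49) were lower. When probe sets were averaged per gene, Gab2 turned to -0.29 and Araf to 0.06, Tyk2 was at 0.01 (adjusted p = 0.990) and Jak1 at 0.56 (adjusted p = 0.0645), all with no call. None of the 3 JAK kinases was called with the deposited scaling.

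Inhibitors of these receptors and proteins of their turnover had 3 calls higher and 5 lower among 33 tested of 35 listed. Of all genes, 11.1% were called higher and 9.68% lower. The median of the list was -0.03. The phosphatase Ptpn2, which acts on JAKs and STATs, was higher by 0.90, and the endosomal sorting proteins Stam (0.68) and Hgs (0.41) were higher. Lrig1 (-1.42) and Errfi1 (-1.34), which restrain Egfr, the STAT5 target Cish (-0.73) and the protease Furin (-0.51) were lower. Ptpn2 and Stam were not called with averaged probe sets or with the deposited scaling, while Lrig1, Errfi1 and Cish were called in these settings. Hgs and Furin were each called in 6 of 18 alternatives. Errfi1 had 1407 at 4 h, 341 at 8 h and 321 and 335 at 12 h with tunicamycin, against 1432, 1519.8, 1345 and 1004 in controls, so its 4 h arrays lay together as those of Pdgfra and Lifr did.

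Genes known to respond to MAP kinase or STAT signalling had 7 calls higher and 9 lower among 31 tested of 36 listed, against 11.1% and 9.68% of all genes. Their median was 0.03. The repressor Bcl6 (1.21), the Ras pathway inhibitor Spry1 (0.90) and the early response genes Ier2 (0.88) and Junb (0.84) were higher. For Ier2 and Junb the 12 h control was the lowest array, at 118 and 46.4, against 335 and 83.8 in the 4 h control. At 8 h they were at 0.30 and 0.50 with no call. Their calls over all times were lost without the 12 h control, which also removes the contrast at 12 h. Dusp4, a phosphatase of MAP kinases, had 250.1 at 4 h, 34.2 at 8 h and 24.3 and 20.0 at 12 h with tunicamycin, against 339, 295, 393 and 231 in controls, and fell by 2.46 (SE 0.419, limma adjusted p = 0.00451). The secreted inhibitor Serpina3n (-1.33), Spry4 (-1.04), a relative of Spry1, and the kinase Pim3 (-0.79) were lower.

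The calls of these pathway genes changed when arrays were left out. Of the 35 genes named from the 5 lists, 7 kept their calls without any 1 array, namely Il6, Igf1, Gab2, Jak2, Ptpn2, Bcl6 and Spry1. Without the 8 h tunicamycin array 26 lost their calls, and without the 12 h control 20 did. No filter cost 27 of the 35 calls, the deposited scaling 21 and averaged probe sets 14. Leaving out either 4 h array cost none, and leaving out any other array cost 8 or 9. The 8 h tunicamycin array, the 12 h control and each 4 h array are alone in their group. Without 1 of them its time has no treatment contrast, so the part of the array and that of the time cannot be told apart. Il6 was the 1 gene of these called in all 18 alternatives.

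**Figure D4:**
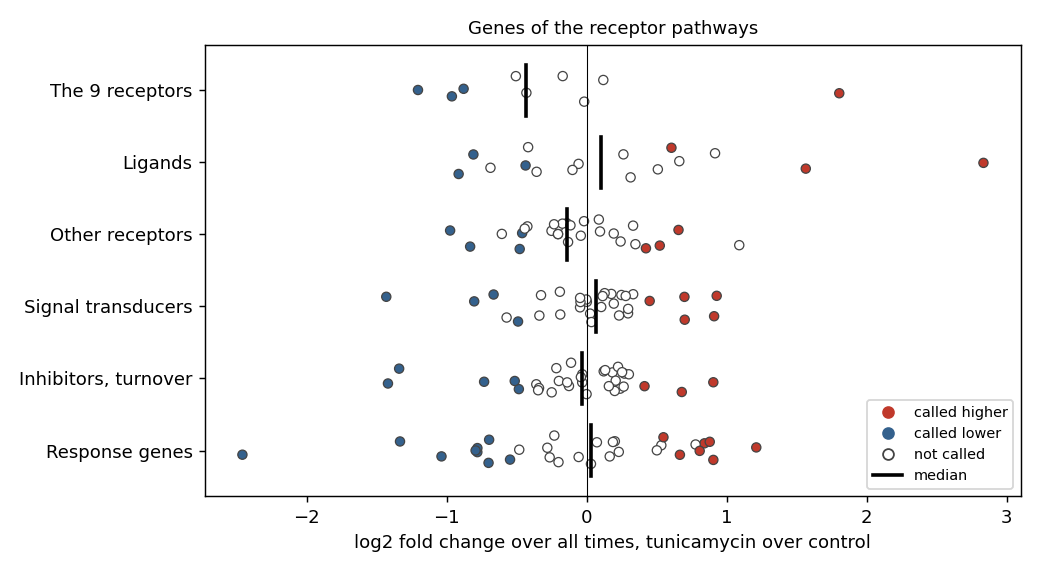
Log2 fold change over all times of tunicamycin over control (horizontal axis) for the tested genes of each list, with the 9 receptors in the top row. Each point is a gene, spread vertically for display, red points were called higher, blue points lower and open points not called, and the black bar is the median of the list. The bar of the receptors lies at -0.43 and those of the other lists between -0.14 and 0.10.

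Fat cell markers were lower on the same arrays. Of 16 tested markers 10 were called lower over all times and none higher, against 9.68% and 11.1% of all genes. Their median was -0.38, and their summed intensity was 41131 to 57361 with tunicamycin and 50813 to 60899 in controls. Cebpa, a transcription factor of fat cells, fell by 1.50, Lipe by 0.86, Cidec by 0.85 and Agpat2 by 0.81, while Adipoq was at -0.03 with no call. With averaged probe sets Lipe was at -0.19 and not called (adjusted p = 0.659). Of 13 tested markers of fibroblasts and fat cell progenitors, 1 was called higher (Fn1, 0.52) and 3 lower, including S100a4 (-1.54) and Vim (-0.22, adjusted p = 0.0477), and their sum was 38313 to 43926 with tunicamycin and 43472 to 51275 in controls. The call of Vim was made in 3 of 18 alternatives and was lost whichever array was left out. Of the 7 markers named as called, Cebpa, Lipe, Cidec, Fn1 and Vim were not called without the 8 h tunicamycin array, Cebpa, Fn1 and Vim were not without the 12 h control, and 0 of the 7 were called without a filter. In these bulk samples fewer cells of a type and less RNA per cell cannot be told apart, and the part of cell makeup in the receptor values was not tested.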

How the data were processed

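Total RNA of 8 cultures was hybridised to Affymetrix arrays after Trizol extraction and biotin labelling, per the labels' protocols. The deposited table holds 1 linear intensity per probe set and array, with software and scaling not given in the sources used here. Other tables of the authors, as deposited, hold, for each time and probe set, a log10 ratio of unstated direction and a p-value of unstated test, and they entered no test.

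Array medians differed by 1.2 on the log2 scale, so intensities were quantile normalized, values below 0 were set to 0 and log2(value + 2.956) was taken, where 2.956 is the 10th percentile of positive deposited values. Fold changes on this scale understate the change of dim genes. Of 45101 probe sets, 34945 had 1 gene symbol, 932 several and 9211 none. For 34741 of those with 1 symbol, the symbol was taken from RefSeq of GRCm38.p6 through the gene ID, whether or not it changed. Control probe sets with a symbol were left out. Each of 18193 genes was represented by its brightest probe set on average, and the 10916 at or above the 40th percentile (15.3 intensity units) were tested.

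Tests used limma 3.58.1 in R 4.3.3 with an intensity trend. The effect over all times came from an additive model of time and treatment (4 residual and 5.89 prior degrees of freedom), so that differences between times add to its residual. Effects at single times and their differences came from a model with 1 mean per group (2 residual and 6.36 prior degrees of freedom). All p-values are two-sided and adjusted by Benjamini-Hochberg. Both models were run on simulated data, in which 100 genes had a log2 change of 1 and 100 had a change of 2. Over all times 82 and 92 of these genes were recovered, with 14 false calls. At single times 9 and 56 were recovered at 4 h, 13 and 66 at 8 h, and 13 and 70 at 12 h. These genes had the same log2 change at every time, so they held no difference between times to recover. The F test of that difference called 0 of them, and its power to find such a difference was not tested. Genes were named by rule: all receptors, from each list up to 4 genes per direction with the largest change among those called whose tunicamycin arrays all lay to 1 side of the controls of their own times, and for each receptor the 3 most like genes. The receptors and lists were chosen with earlier results of these data known. Alternatives were the scaling, the added value, the filter, the mean of probe sets, no trend, the replicate block, subsets of times and leaving out each array. Where the array left out was alone in its group, the additive model also lost the contrast of that time. No 2 arrays held identical values, and the number of arrays limits the precision. Figures used matplotlib 3.10.9 in Python 3.11.15.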

Additional observations from a re-analysis of the deposited data

Results flagged for a closer look

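The following results were picked out because the effect of tunicamycin differed between times in a test of the difference itself. For Pdgfra the F test had a limma adjusted p of 0.0260, with an effect at 12 h minus that at 4 h of -1.40 and an effect at 8 h minus that at 4 h of -1.50. For Ghr the F test gave 0.0318 and 12 h minus 4 h was -1.19, and for Osmr the F test gave 0.0491 and 12 h minus 4 h was 1.24. For Lifr 12 h minus 4 h was -1.47. Among the other genes named, the adjusted p of the F test was 0.0203 for Irs1, 0.0293 for Lrig1, 0.0203 for Errfi1, 0.0260 for Dusp4, 0.0446 for Cebpa, 0.0479 for Lipe and 0.0203 for S100a4. The F test calls were lost in 6 of 12 alternatives for Pdgfra, 9 for Ghr and 10 for Osmr. They were lost in 5 for Irs1, 6 each for Lrig1, Errfi1, Dusp4 and S100a4, 8 for Cebpa and 10 for Lipe. The calls of 12 h minus 4 h were lost in 4 of 13 alternatives for Pdgfra and for Ghr and in 6 for Osmr and for Lifr, and that of 8 h minus 4 h for Pdgfra in 6. All of these differences rest on 1 tunicamycin and 1 control array at 4 h, and the part of the 4 h tunicamycin array's 3' to 5' ratios in them was not tested.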

How the results depend on the processing

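Over all times, 1 receptor (Osmr) was called higher in each of the 18 alternatives. The count of lower receptors, 3, was 0 without a filter, 0 in the 4 h and 8 h arrays alone and 5 in the 12 h arrays alone, and leaving out 1 array at a time gave 0 to 5 (0 when the 12 h control or the 8 h tunicamycin array was left out, 5 without either 4 h array). The 12 h control, the 8 h tunicamycin array and each 4 h array are alone in their group, so leaving 1 out also removes its time's contrast. With the deposited scaling kept, 0 receptors were called higher and 0 lower at 8 h, and 0 and 0 at 12 h. Without a filter 1 was lower at 8 h and 2 at 12 h, and with the mean of all probe sets 3 were lower at 12 h. The count of receptors whose effect differed between times, 3, was 0 with the deposited scaling, without a filter, with the mean of all probe sets and without the trend, 1 with arrays scaled to a common median, and 0 to 1 without single arrays. The 2 probe sets called higher became 1 with the deposited scaling, a common median, an added value of 1, the replicate block or the 4 h and 8 h arrays alone, 0 without a filter or a trend, and 1 to 3 without single arrays. The 6 called lower became 0 without a filter or a trend, 2 in the 4 h and 8 h arrays alone, and 0 to 10 without single arrays. With the replicate block, 1 receptor was called higher and 3 lower, as without it, and the numbers say nothing of a shared culture. The block in the model with 1 mean per group, an alternative chosen after seeing the data, left 1 residual degree of freedom. With that replicate block, 1 receptor was called higher at 4 h (Osmr, 0.94, adjusted p = 0.0160), the counts at 8 h and 12 h were as without it, and 6 receptors differed between times, with Fgfr1, Met and Lifr added. Over all genes, 189 differed between times in the main fit and 0 to 724 over the 12 alternatives, so the count of 6 receptors cannot be read alone. At an added value of 16, no count of receptors or of their probe sets moved by over 1.5 times.

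Directions turned for values with no call and, with the mean of all probe sets, for the called genes Gab2 and Araf. With the deposited scaling Il6st was at -0.16 over all times, Fgfr1 at -0.36, Ghr at -0.39 and Il6st at -0.43 at 4 h, and Igf1r at -0.0302 at 8 h. With the mean of all probe sets Igf1r was at 0.0458 over all times, Egfr at 0.27, Igf1r at 0.23, Fgfr1 at -0.18, Ghr at -0.26, Il6st at -0.47 and Lifr at 0.057 at 4 h, and Il6st at 0.34 at 12 h, and over all times Gab2 was at -0.29 and Araf at 0.065. In the 12 h arrays alone Il6st was at -0.0102. With the replicate block Igf1r was at -0.136 at 8 h, and Egfr at 0.147, Igf1r at 0.137 and Il6st at 0.0516 at 12 h. Without single arrays, Igf1r ranged from -0.0949 to 0.0604 over all times and from -0.0406 to 0.0952 at 8 h. At 12 h Egfr then ranged from -0.304 to 0.242, Igf1r from -0.285 to 0.233 and Il6st from -0.0418 to 0.0213. The cause of these changes was not tested. Dropping the filter adds dim genes to the fit and to the adjustment, and leaving out arrays lowers the number of arrays. The part of either in the changes was not tested. Over all genes 1207 were called higher and 1057 lower, which became 143 and 707 with the deposited scaling, 400 and 178 without a filter, 703 and 766 with the mean of all probe sets, 867 and 600 without the trend, 347 and 140 in the 4 h and 8 h arrays alone, and 270 and 105 without the 8 h tunicamycin array.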
